A study of Mus musculus with 10 samples.

Results

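The 8 genes described here encode members of the alpha carbonic anhydrase family, of 53801 genes in the deposited table of 10 mouse libraries. They are Car2, Car4, Car8, Car10, Car11, Car12, Car13 and Car14, found by their symbols. The family was chosen on the contrast between the sorted populations, because Car14 was among the genes called in it, so every NG2 against GFAP value below is a description of how the genes were picked and supports nothing further. The libraries came from dorsal brain of wild-type (WT) mice, in which cells were targeted in utero at embryonic day 12 by electroporation with StarTrack, a reporter plasmid set for following the descendants of electroporated progenitors. On embryonic day 14 the tissue was dissociated, and GFAP+ (5 libraries) or NG2+ (5 libraries) cells were taken by flow sorting. All 10 libraries thus share the electroporation, the dissociation and the label batch 1, and none is an untreated control. The sources used here do not say whether a library is 1 embryo or a pool, so p-values measure only the spread between these libraries, which may be technical.

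Carbonic anhydrases are zinc enzymes that interconvert carbon dioxide and bicarbonate with release or uptake of a proton, and so set how fast a cell can buffer and move acid. Car2 and Car13 are cytosolic enzymes. Car4 is held on the outer membrane face by a lipid anchor, and Car12 and Car14 are membrane-spanning enzymes with an extracellular active site. Car8, Car10 and Car11 are carbonic anhydrase-related proteins, which keep the fold but have lost zinc-binding residues and catalysis. In brain, Car2 is best known from choroid plexus, oligodendrocytes and astrocytes, and Car8 from Purkinje cells, where it binds the inositol trisphosphate receptor.

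Libraries held 12945436 to 17569730 counts and reads for 18903 to 24444 genes. NG2 replicate 5 stood apart: it had the highest total and the fewest genes with reads, and correlated with the other 9 libraries at r = 0.919 to 0.929 (across genes). Cspg4, which encodes NG2, was at a CPM (count scaled to library size and TMM factor) of 6.75 ± 1.47 in NG2 and of 1.07 ± 0.356 in GFAP libraries (SD, n = 5), while Gfap had 6 and 10 reads in all. The labels call the cells neural stem cells. All 17 radial glia markers had reads in every library, with sums of 2135 to 4175 CPM, and so had 15 markers of differentiating neurons, with sums of 5837 to 10491 CPM.

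Sequence upstream of the annotated start was available for 5 of the 8 members, and that of the 2 most highly expressed members and of Car12, a member with large differences between libraries, is shown because the results turn on these genes. Each is the 250 bases before the RefSeq start nearest to the deposited gene start, 5′ to 3′ on the gene's strand, GRCm38.p6, with CG dinucleotides, the sites of DNA methylation, in capitals.
Car14, chr3:95904686-95904935, minus strand: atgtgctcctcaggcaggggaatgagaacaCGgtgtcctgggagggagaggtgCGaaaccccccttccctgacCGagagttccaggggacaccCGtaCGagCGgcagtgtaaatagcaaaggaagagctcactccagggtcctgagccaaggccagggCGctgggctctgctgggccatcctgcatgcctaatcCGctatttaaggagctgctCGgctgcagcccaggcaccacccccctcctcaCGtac
Car11, chr7:45699554-45699803, plus strand: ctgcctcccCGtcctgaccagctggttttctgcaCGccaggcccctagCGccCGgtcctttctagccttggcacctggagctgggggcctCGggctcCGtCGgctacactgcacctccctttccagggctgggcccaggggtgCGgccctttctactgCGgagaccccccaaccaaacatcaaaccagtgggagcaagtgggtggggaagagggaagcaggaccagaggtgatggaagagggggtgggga
Car12, chr9:66713436-66713685, plus strand: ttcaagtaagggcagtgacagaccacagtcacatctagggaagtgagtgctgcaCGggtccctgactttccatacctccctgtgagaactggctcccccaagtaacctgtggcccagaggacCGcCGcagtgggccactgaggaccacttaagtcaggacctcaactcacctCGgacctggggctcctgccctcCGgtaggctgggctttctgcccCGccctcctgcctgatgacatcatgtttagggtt
CG dinucleotides numbered 10 in the Car14, 9 in the Car11 and 6 in the Car12 window, against a median of 6 over 32841 RefSeq promoter windows of the same length. The ratio of observed to expected CG was 0.416 for Car14, 0.335 for Car11 and 0.276 for Car12, beside a median of 0.374. The letters ACGTG are a form of the core to which hypoxia-inducible factor binds. On either strand, they were found in the Car14 window and in 16.6% of all windows. They were not among the letters of the Car11, Car12, Car4 or Car10 windows. The other form of the core, GCGTG, was not counted, and the Car11 window holds it on the opposite strand. TATAAA, on either strand, was in 12.4% of all windows and in none of the 5 members' windows. The Car4 and Car10 windows held 11 and 13 CG dinucleotides.

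Car14 and Car11 dominated the family at the RNA level, and the other 6 members were far lower. On the deposited FPKM scale, which corrects for gene length, Car14 stood at a mean of 11.9 ± 3.94 and Car11 at 8.80 ± 1.96 over the libraries (SD, n = 10). Car2 followed at 1.32 ± 0.646, Car8 at 0.681 ± 0.378, Car13 at 0.365 ± 0.157 and Car12 at 0.276 ± 0.210 FPKM. Car10 and Car4 were near the limit of detection, at 0.0681 ± 0.0819 and 0.0573 ± 0.0678 FPKM. Only the step from Car11 to Car2 separated neighbours in this order without overlap of their ranges: Car11 was 6.66-fold above Car2, and higher in 10 of 10 libraries. Car14 exceeded Car11 in 6 libraries, Car2 exceeded Car8 in 8, Car8 exceeded Car13 in 8, Car13 exceeded Car12 in 5 and Car10 exceeded Car4 in 4. Car12 lay above Car10 in all 10 libraries although their ranges over the libraries overlapped.

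**Figure D1:**
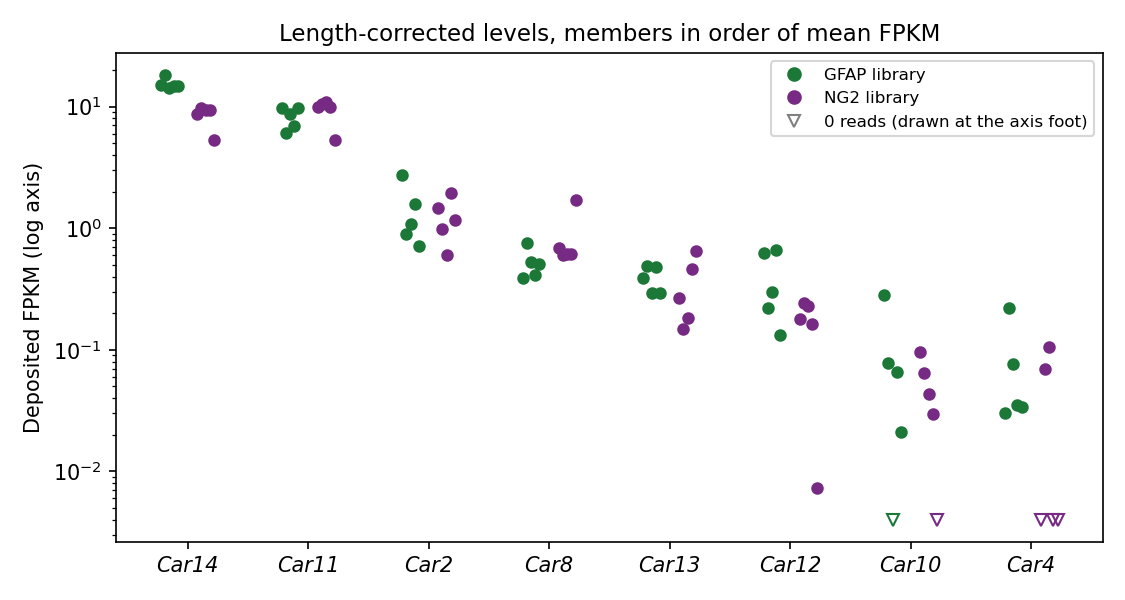
Deposited FPKM (log axis) of each member in each of the 10 libraries, members ordered by mean; green, GFAP; purple, NG2; open triangles, 0 reads. Car14 and Car11 lie at 5.32 to 18.1 FPKM in all libraries, and no other member exceeds 2.74 FPKM.

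Car14 was 1.82-fold higher in GFAP than in NG2 libraries, and it was the member that brought the family to notice. Its levels were 38.7, 46.6, 36.5, 37.9 and 37.9 CPM in GFAP replicates 1 to 5 and 22.0, 24.7, 24.0, 24.3 and 13.7 CPM in NG2 replicates 1 to 5. Every GFAP library lay above every NG2 library. GFAP replicate 2 was the highest and NG2 replicate 5 the lowest of the 10, while the other libraries of each group were tightly placed, at 36.5 to 38.7 and 22.0 to 24.7 CPM. Such a lack of overlap is not particular to Car14, as the cell type markers Lhx2, Sox9 and Stmn2 showed it without being called. Its share over all genes tested is not reported here. In bulk RNA such as this, fewer cells that express a gene and less of its RNA per cell cannot be told apart. Car14 (ENSMUSG00000038526, chromosome 3, 95897768 to 95904691, minus strand, GRCm38) had a log2 fold change, NG2 minus GFAP, of -0.86 (SE 0.15, edgeR's quasi-likelihood test, Benjamini-Hochberg adjusted p = 0.0429). With NG2 replicate 5 left out it was -0.73 (adjusted p = 0.0101). The call was lost in each of the 9 fits that left out another single library (log2 fold change -0.91 to -0.80, adjusted p = 0.0695 to 0.148). These fits also rest on fewer libraries.

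Of the markers of other cell types, 1 gene was called by edgeR. Over all 16187 genes tested, 0.148% were called, 12.8% had an unadjusted p under 0.05 and 51.5% had a negative log2 fold change. The counts below stand beside these shares, and at 0.148% a count of 0 called says nothing particular about a list. The 17 radial glia markers summed to 3080 to 4175 CPM in GFAP libraries and to 2135 to 3267 CPM in NG2 libraries, with 16 of 17 log2 fold changes negative (median -0.29), 0 called and 8 at an unadjusted p under 0.05. The 15 neuron markers summed to 5837 to 7520 CPM and to 7411 to 10491 CPM, with 13 positive (median 0.35), 0 called and 9 unadjusted. Of the intermediate progenitor markers, 6 of 8 were negative (median -0.22), with 0 called and 3 unadjusted. These are the progenitors and young neurons of the dorsal wall. Of the markers tested, 5 of 5 for Cajal-Retzius cells (median -1.28, 4 unadjusted), 7 of 8 for meningeal fibroblasts (median -0.68, 1 unadjusted) and 5 of 6 for astrocytes (median -0.44, 2 unadjusted) were negative, with 0 called. The astrocyte list shares Sox9 with the radial glia list, so these lists are not independent. Its members Aldoc and Sox9 had means of 297 and 118 CPM over all libraries, and Aqp4 and S100b of 0.777 and 0.608 CPM. All 10 microglia markers were positive (median 0.90) with 0 called and 0 unadjusted, and their sums overlapped, at 47.3 to 178.7 CPM and 31.0 to 399.5 CPM. Other lists were mixed, with 0 called and 0 unadjusted. Negative were 4 of 6 oligodendrocyte lineage (median -0.13), 3 of 8 erythroid (median 0.037) and 5 of 7 endothelial markers (median -0.28). Of the 7 pigment cell markers, Tyr and Rpe65 had 0 reads and 2 were tested. Tyrp1 was not called (edgeR adjusted p = 0.845), and Dct, a melanin synthesis gene, was called lower in NG2 (log2 fold change -2.10, SE 0.35, edgeR adjusted p = 0.0379). The part of these cell types in the difference in Car14 between the groups was not tested.

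The last 521 bp of the Car14 gene overlap the end of Aph1a, a gamma-secretase subunit gene on the opposite strand, and the sources used here do not say whether counting used strand. Reads in the overlap are therefore of uncertain origin. Aph1a itself had 3528 reads in GFAP and 4145 in NG2 libraries, a log2 fold change of 0.17 in the direction opposite to that of Car14 (edgeR adjusted p = 0.680). The authors' deposited table gives Car14 a log2 fold change of -0.85 with an adjusted p of 0.000109, and gives none of the other 7 members an adjusted p under 0.240. The DESeq2 Wald test run here on the deposited counts also gave Car14 -0.85 (adjusted p = 0.000105), so the authors' value is not separate evidence.

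Of the 6 members that passed edgeR's expression filter, 1 was called lower in NG2 and 0 higher, beside 0.148% of the 16187 genes tested called in either direction and 0.0741% called lower. Since the contrast chose the family, nothing is read from that count. Car4 and Car10 did not pass the filter. The median log2 fold change of the 6 was -0.19, beside -0.0097 over all genes tested, with 4 negative and 2 positive. The other 5 members had adjusted p of 0.404 to 0.914 (edgeR).

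**Figure D2:**
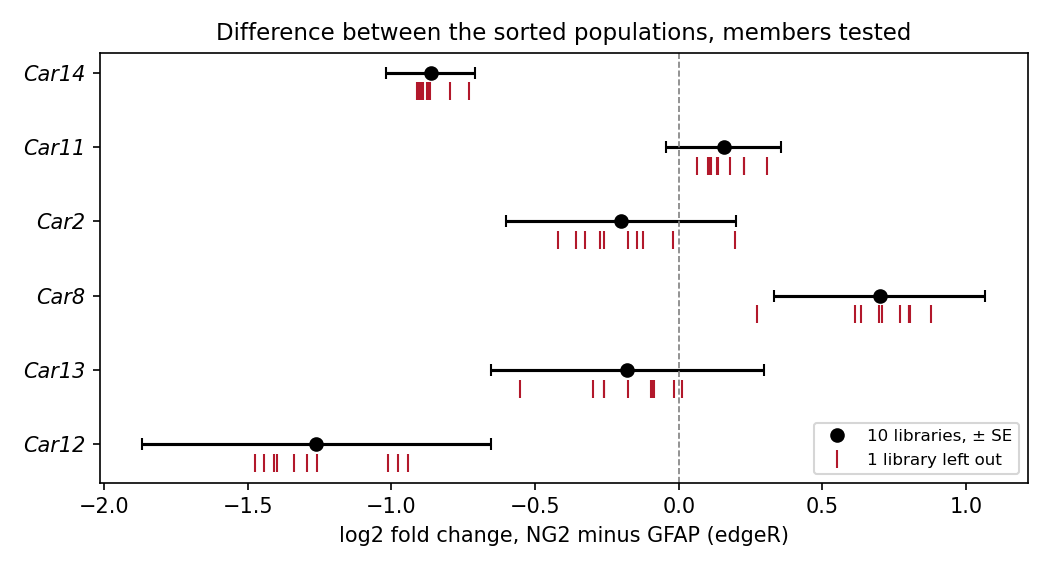
Log2 fold change, NG2 minus GFAP, of the 6 members tested by edgeR (black point, estimate; bar, ± SE; red ticks, the 10 fits with 1 library left out). Car14 stays between -0.91 and -0.73, while Car2 and Car13 lie on both sides of 0 and Car8 falls to 0.27 in 1 fit.

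Among the other catalytic members, Car2 was detected in all libraries and was not called. It stood at 6.77, 2.20, 2.66, 3.92 and 1.77 CPM in GFAP replicates 1 to 5 and at 3.55, 2.41, 1.46, 4.77 and 2.87 CPM in NG2 replicates 1 to 5. The ranges overlapped over most of their length, with GFAP replicate 1 the highest. Car2 (chromosome 3, 14886273 to 14900770, plus strand) had a log2 fold change of -0.20 (SE 0.40), which turned to 0.19 (SE 0.39) without GFAP replicate 1.

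Car13 (chromosome 3, 14641727 to 14663002, plus strand), the second cytosolic enzyme, lies in the same gene cluster. It had 5 to 27 reads per library, at 0.906 ± 0.222 CPM in GFAP and 0.793 ± 0.495 CPM in NG2 libraries (SD, n = 5), and the groups overlapped (log2 fold change -0.18, SE 0.48). The span of 259044 bp from Car13 to Car2 also holds Car1, an enzyme of red blood cells, and Car3, an enzyme of muscle and fat. Expression along it was uneven: Car1 had 0 reads in all 10 libraries, Car3 had 93 reads in all, Car13 132 and Car2 498. Erythroid markers, 10 genes with reads of all 10 in every library, summed to 252 to 466 CPM in GFAP and 268 to 513 CPM in NG2 libraries, beside the 0 reads of Car1.

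Car12 (chromosome 9, 66713686 to 66766845, plus strand), the second membrane-spanning enzyme, varied widely between libraries. Its levels were 4.88, 1.70, 2.28, 5.11 and 1.02 CPM in GFAP replicates 1 to 5 and 1.36, 1.86, 1.74, 1.25 and 0.0564 CPM in NG2 replicates 1 to 5. GFAP replicates 1 and 4 were high, NG2 replicate 5 held a single read, and the remaining 7 libraries of both groups lay between 1.02 and 2.28 CPM. The log2 fold change was -1.26 (SE 0.61, edgeR adjusted p = 0.404). With GFAP 1 and GFAP 4 left out, an alternative chosen after seeing the data, it was -0.41 (SE 0.71, adjusted p = 0.937).

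The 2 libraries high in Car12 were also the 2 highest in markers of choroid plexus epithelium, the secretory epithelium of the ventricles that makes cerebrospinal fluid. The 12 markers summed to 304, 18.2, 66.3, 155 and 8.31 CPM in GFAP replicates 1 to 5 and to 53.7, 18.5, 13.5, 9.97 and 6.03 CPM in NG2 replicates 1 to 5. Between 2 and 10 of the 12 had reads in a library. In GFAP replicates 1 and 4 most of the sum was Ttr, the thyroid hormone carrier transthyretin, at 251 and 128 CPM, and Ttr had 0 reads in GFAP replicate 5. GFAP replicates 1 and 4 were also the 2 highest in Cajal-Retzius markers, at 56.0 and 54.1 CPM, with GFAP replicate 5 next at 35.4 CPM. Car2 was highest in GFAP replicate 1 and next highest in NG2 replicate 4 and GFAP replicate 4. GFAP replicate 1 and NG2 replicate 4 were the 2 highest in endothelial markers, at 32.1 and 26.7 CPM. The part of these cell types in the Car12 and Car2 levels was not tested.

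For Car14, GFAP replicates 1 and 4 held 38.7 and 37.9 CPM, and GFAP replicate 5, with the lowest marker sum of its group, held 37.9 CPM. With GFAP 1 and GFAP 4 left out, the log2 fold change of Car14 was -0.89 (SE 0.19, edgeR adjusted p = 0.274 with 8 libraries). Of the 12 choroid plexus markers 4 were tested, with 4 negative (median -1.87), 0 called and 2 at an unadjusted p under 0.05. The part of these cells in the Car14 levels was not tested.

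**Figure D3:**
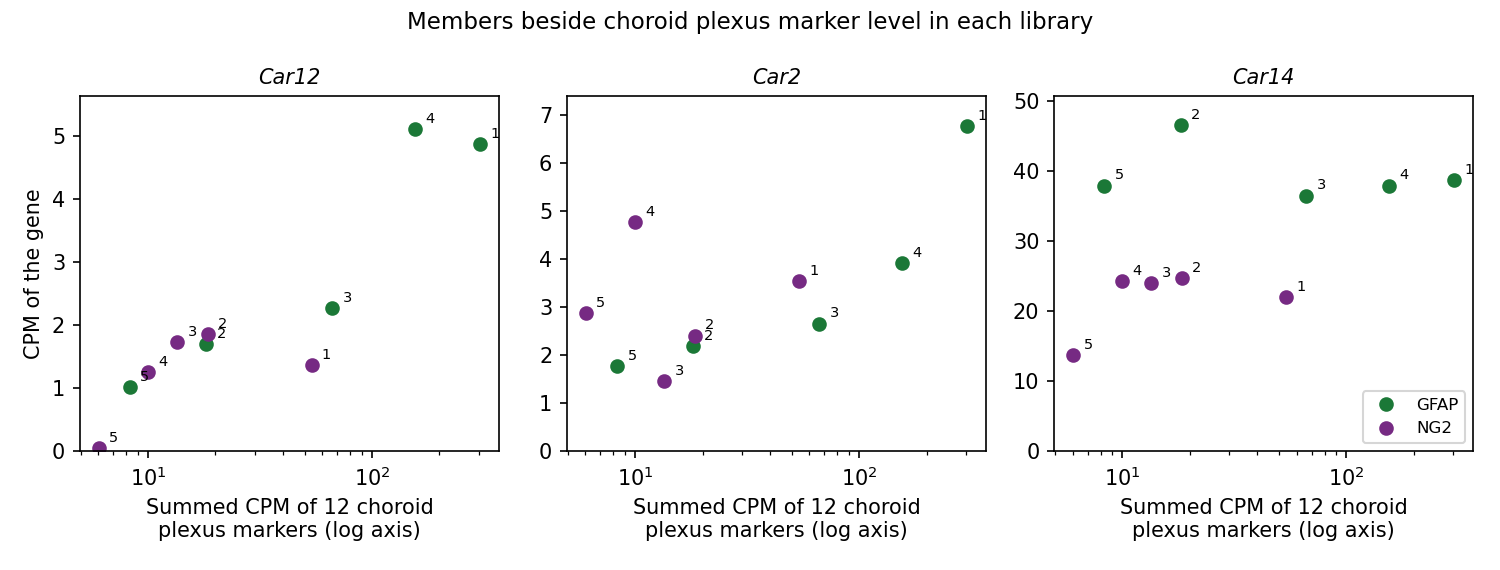
CPM of Car12, Car2 and Car14 in each library against the summed CPM of 12 choroid plexus markers (log axis); numbers are replicates. GFAP 1 and GFAP 4, at 304 and 155 CPM of markers, hold the highest Car12 levels, while Car14 stays at 36.5 to 46.6 CPM in the GFAP libraries across marker sums of 8.31 to 304 CPM.

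Car4 (chromosome 11, 84957786 to 84966044, plus strand), the lipid-anchored enzyme known from brain capillaries, was scarcely detected. It had 12 reads in the GFAP libraries, 7 of them in GFAP replicate 2, and 5 reads in NG2 libraries, with 0 reads in NG2 replicates 1, 4 and 5. A count of 0 there allows up to 3 reads, or 0.169 to 0.205 CPM, for counting error only. The 10 endothelial markers were also low, with sums of 5.65 to 32.1 CPM in GFAP and 2.14 to 26.7 CPM in NG2 libraries. A difference in Car4 between the populations was not detectable at this depth.

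Of the related proteins without catalysis, Car11 was the abundant one and did not share the Car14 pattern. It stood at 19.3, 11.9, 17.1, 13.6 and 19.1 CPM in GFAP replicates 1 to 5 and at 19.3, 20.3, 21.0, 19.3 and 10.4 CPM in NG2 replicates 1 to 5. The groups overlapped: NG2 replicate 5 was the lowest of all 10 libraries, and the other 4 NG2 libraries were tightly grouped at 20.0 ± 0.844 CPM (SD, n = 4). Car11 (chromosome 7, 45699843 to 45704682, plus strand) differed by 0.16 on the log2 scale (SE 0.20, not called), and by 0.31 (SE 0.15, edgeR adjusted p = 0.314) without NG2 replicate 5.

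Car14 and Car11 RNA were also compared within each library, as the 2 genes make up most of the family's RNA. The ratio of Car14 to Car11 FPKM within a library was 1.52, 2.97, 1.62, 2.11 and 1.51 in GFAP replicates 1 to 5 and 0.864, 0.922, 0.865, 0.955 and 1.00 in NG2 replicates 1 to 5. Each GFAP library thus held more Car14 than Car11 per length, and in NG2 libraries the ratio was at or just under 1. The share of Car14 in the summed FPKM of the 8 members was 58.0% ± 5.99 in GFAP and 41.2% ± 2.31 for NG2 libraries (SD, n = 5). These ratios rest on the same contrast as the choice of Car14 and were not tested.

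Car8, the partner of the inositol trisphosphate receptor, was low and even apart from a single library. It lay at 1.52 to 2.95 CPM in the GFAP libraries and at 2.34 to 2.66 CPM in NG2 replicates 1 to 4, and reached 6.65 CPM (118 reads) in NG2 replicate 5. The groups overlapped. The log2 fold change of 0.70 (SE 0.37) was 0.27 (SE 0.28) without NG2 replicate 5. Car8 (chromosome 4, 8143362 to 8239041, minus strand) also overlaps the pseudogene Gm11799 and the miRNA gene Gm25355, which had 0 and 2 reads.

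Car10 (chromosome 11, 93098028 to 93601749, plus strand), a ligand of neurexins, overlaps the snRNA gene Gm24856, which had 0 reads. It had 46 reads in the GFAP libraries, 30 of them in GFAP replicate 1, and 22 reads in NG2 libraries. GFAP replicate 3 and NG2 replicate 5 had 0 reads, which allows up to 0.228 and 0.169 CPM. Outside GFAP replicate 1 the level stayed between 0 and 0.614 CPM in both groups, too low for a difference to be detectable.

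**Figure D4:**
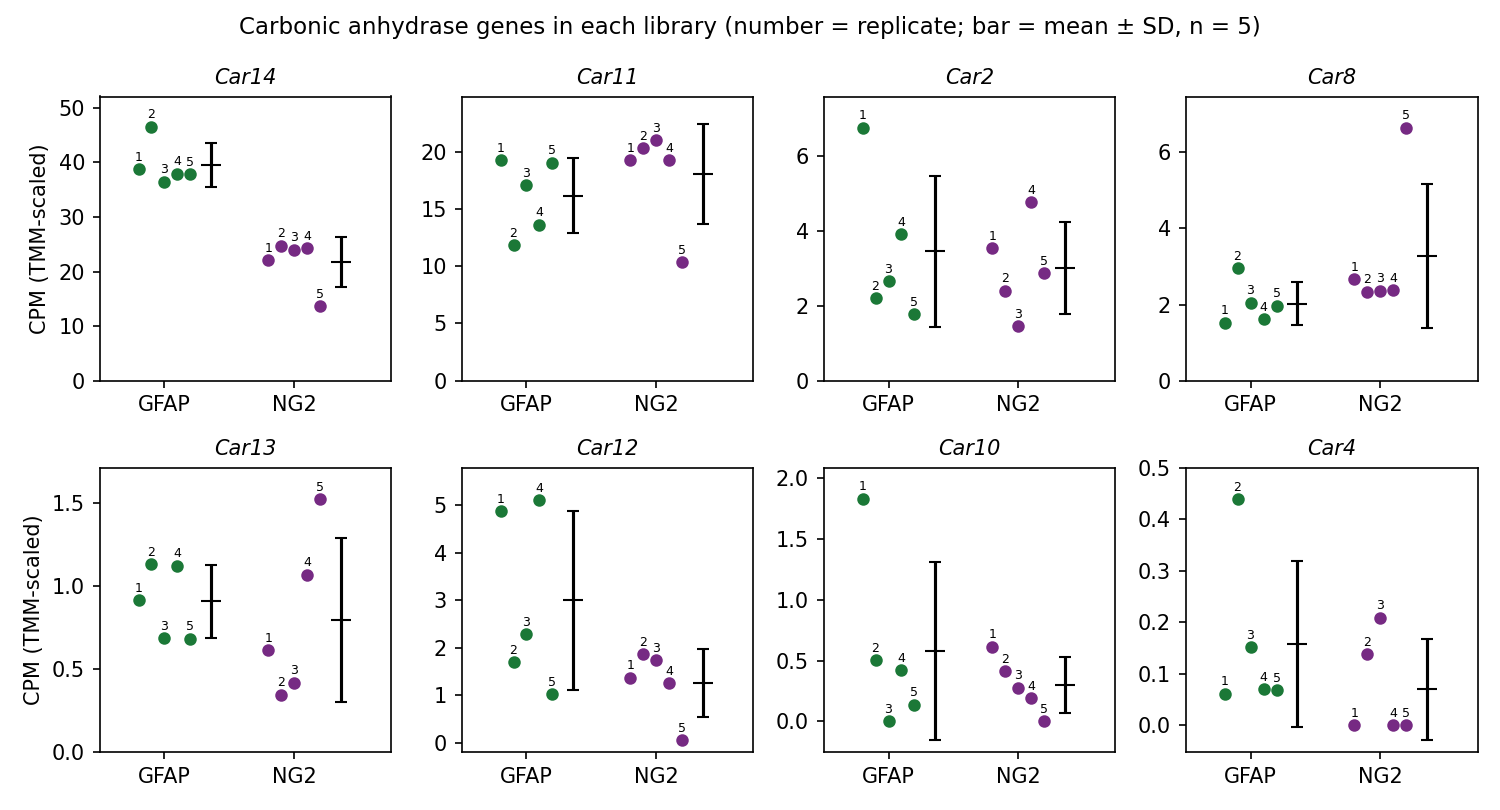
TMM-scaled CPM of the 8 members in each library (number, replicate; black bar, mean ± SD, n = 5 per group; vertical scales differ between panels). The groups do not overlap for Car14, which is also so for some marker genes that were not called. NG2 5 is high for Car8 and low for Car11, Car12 and Car14.

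The rest of the family was low. Car7, a cytosolic enzyme of neurons, was the 1 other member that passed the filter, at 1.90 ± 0.449 CPM in GFAP and 1.84 ± 1.13 CPM in NG2 libraries (log2 fold change -0.05, SE 0.63, edgeR adjusted p = 0.985). It had 19 to 48 reads in 9 libraries and 0 in NG2 replicate 5. The mitochondrial enzymes Car5a and Car5b had 15 and 80 reads in all, and Car9, a membrane enzyme induced by hypoxia, had 15 in GFAP and 26 in NG2 libraries. Car15 had 26 reads in each group, and Car6, the enzyme of saliva, 1 read in all. NG2 replicate 5 had 0 reads for 8 of the 16 family genes, against 1 to 3 of 16 in the other libraries, beside its highest total count.

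Genes whose proteins work with carbonic anhydrases were taken as lists. Of 41 genes in 7 lists, the other 8 carbonic anhydrases included, 25 were tested and 0 were called, with 2 at an unadjusted p under 0.05, beside 0.148% called and 12.8% unadjusted over all genes tested. At these shares a count of 0 says nothing particular about the lists. Among the bicarbonate transporters of the Slc4 family, log2 fold changes were positive for 3 of 7 tested and negative for 4 (median -0.15). The sodium-bicarbonate cotransporter Slc4a7 stood at 74.9 ± 13.0 CPM in GFAP and 58.7 ± 16.0 CPM in NG2 libraries, and the anion exchanger Slc4a3 at 25.8 ± 3.72 and 29.7 ± 5.04 CPM (SD, n = 5). By voom with sample weights, Slc4a7 was called lower (log2 fold change -0.38, adjusted p = 0.0272). Among 6 sodium-proton exchangers tested, 4 were positive and 2 negative (median 0.10). Of these, Slc9a8 stood at 39.0 ± 4.20 CPM in GFAP and 36.1 ± 3.23 CPM in NG2 libraries (SD, n = 5).

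Lactate and proton transport by monocarboxylate transporters is a known partner process of Car2 and Car4. Of 5 such genes tested, 2 were positive and 3 negative (median -0.24). Their chaperone Bsg was at means of 443 CPM in GFAP and 473 CPM in NG2 libraries (log2 fold change 0.09, SE 0.10), and the transporter Slc16a1 at 43.9 ± 6.17 and 37.2 ± 9.86 CPM (SD, n = 5). The receptor phosphatases Ptprz1 and Ptprg, whose outer part holds a carbonic anhydrase-like domain, were at 176 ± 2.16 and 54.6 ± 5.36 CPM in GFAP and at 175 ± 33.9 and 40.6 ± 13.1 CPM in NG2 libraries. Ptprz1 is also on the radial glia marker list, so these 2 lists are not independent. Itpr1, the receptor that Car8 binds, was at 45.1 ± 12.5 CPM in GFAP and 46.8 ± 11.1 CPM in NG2 libraries, and Itpr2 at 1.32 ± 0.480 and 1.52 ± 0.713 CPM.

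Within the groups, no member followed the content of progenitors or neurons past the threshold. After the group mean was removed from both values, the log2 CPM of each tested member was correlated over the 10 libraries with scores of 17 radial glia, 8 intermediate progenitor and 15 differentiating neuron markers. This removes the contrast that chose the family. Of 18 pairs, 0 passed after Benjamini-Hochberg adjustment of an exact permutation test within groups (2 at an unadjusted p under 0.05, by Pearson's r and also by Spearman's rho). By r these were Car8 and Car11, and by rho Car8 and Car13, each with the radial glia score. The smallest adjusted p was 0.180, for Car8 with the radial glia score (r = 0.69, exact permutation p = 0.0100; rho = 0.70, p = 0.0333, adjusted 0.197). With both GFAP replicate 2 and NG2 replicate 5 left out r was 0.30, and with any 1 library left out it was 0.61 to 0.79. Car11 ran the other way (r = -0.66, exact permutation p = 0.0229, adjusted 0.206; rho = -0.61, p = 0.0795, adjusted 0.204), and without the same 2 libraries r was -0.17. Car13 had the highest r of the 18 (r = 0.77, exact permutation p = 0.0517, adjusted 0.250; rho = 0.76, p = 0.0482, adjusted 0.197), and 0.67 without them, on 5 to 27 reads per library.

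Car14 had an r of -0.33 with the radial glia score (exact permutation p = 0.592, adjusted 0.761; rho = -0.067, p = 0.895, adjusted 0.948). Without the 2 farthest libraries r was -0.25, and without NG2 replicate 5 alone it was 0.28.

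The genes whose log2 CPM most resembled that of Car14 over the 10 libraries, among 10227 protein-coding genes with a mean of at least 5 CPM, were Phka1 (r = 0.96), Plod2 (r = 0.96) and Fkbp14 (r = 0.95). Phka1 encodes a regulatory subunit of phosphorylase kinase, Plod2 a collagen lysyl hydroxylase and Fkbp14 a peptidyl-prolyl isomerase of the endoplasmic reticulum. With the group means removed r was 0.89, 0.90 and 0.79, and without NG2 replicate 5 it was 0.93, 0.93 and 0.91. The r that picked these 3 genes includes the group difference of Car14, so lower means in NG2 follow largely from the choice. Their means were 7.78, 7.89 and 6.82 CPM in NG2 and 14.3, 15.2 and 10.7 CPM in GFAP libraries. None of the 3 was called (edgeR adjusted p = 0.124 to 0.164). For Car11 the nearest genes were Nicn1 (r = 0.95), Ppp1r16b (r = 0.94) and Ksr2 (r = 0.94), none of which was called (edgeR adjusted p = 0.688 to 0.801). All these correlations share library depth and the low values of NG2 replicate 5, and are descriptions.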

How the data were processed

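Per the labels' protocols, RNA from sorted cells (RNAqueous Micro) went through SMARTer amplification and poly(A) selection before paired-end sequencing; no molecular identifiers are stated, so floors cover counting error only. The submitters' processing notes name HISAT2, featureCounts 1.5.0-p3 and GRCm38.p6. Per the file headers, the authors deposited 1 table with raw read counts and FPKM values for each library, and the authors' own comparison, with a mean signal per group, a log2 fold change and a p-value with its adjusted p-value. The sources used here name neither the tool of that comparison nor the strand setting or annotation release.

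The deposited counts of all genes were tested with edgeR 4.0.16 (R 4.3.3; quasi-likelihood test, TMM, default filter by group, Benjamini-Hochberg adjustment over 16187 genes, threshold 0.05), after the script had been tested on simulated data. Fold changes are NG2 minus GFAP, and SE is edgeR's estimate divided by the square root of F. CPM are TMM-scaled. Log2 CPM used a prior count of 2. Replicates differed by more than sampling noise in all pairs. Alternatives used DESeq2 1.42.0 and limma 3.58.1.

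The members, gene lists and tests were chosen with earlier results of these data known. By rule the text names all members, all other carbonic anhydrases, from each partner list every called gene or else the 2 with the highest mean CPM, the 3 genes most correlated with each member of at least 5 CPM, and genes that overlap a member. Some genes that this rule picks are not reported here. Ttr, Dct and Cspg4 were named after their values were seen. Further marker lists summed, in CPM, to 4.64 to 24.8 (meningeal fibroblasts), 17.8 to 31.5 (oligodendrocyte lineage), 312 to 735 (astrocytes), 2057 to 2620 (intermediate progenitors) and 2.09 to 15.3 (pigment cells). Promoter sequences are from RefSeq (GRCm38.p6).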

Additional observations from a re-analysis of the deposited data

Results flagged for a closer look

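Of 16 sets of 5 libraries checked (8 members in 2 groups), 6 held a library that stood apart. Its gap to its nearest neighbour took up more than 0.71 of the range of its group. For independent normal values chance gives about 1 in 20. The 16 sets share the same 10 libraries and some hold few reads, so 6 of 16 is not read against that rate. NG2 replicate 5 stood apart for Car8 (6.65 CPM, high), Car11 (10.4 CPM, low) and Car14 (13.7 CPM, low). GFAP replicate 2 stood apart for Car14 (46.6 CPM, high) and Car4 (0.440 CPM, high, 7 reads). GFAP replicate 1 stood apart for Car10 (1.83 CPM, high, 30 reads). NG2 replicate 5 is also the library with the fewest genes with reads, 18903, and GFAP replicate 2 the library with the highest radial glia score, 0.49. Their part in these levels was not tested.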

How the results depend on the processing

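Car14 was lower in NG2 in all 10 fits with 1 library left out, of which 1 called it, and in 9 other alternatives, of which 6 called it. The number of members called, 1 by edgeR, was 0 by limma-trend on FPKM with a pseudocount of 1 or 0.1 (adjusted p = 0.0708 and 0.0827), 0 with GFAP 1 and GFAP 4 left out, and 0 to 1 with 1 library left out. With the replicate block it was 0 (log2 fold change of Car14 -0.89, adjusted p = 0.133), and 1 of all genes was called against 24 without it. Same-numbered libraries did not deviate together (r = -0.0205 to 0.0828), so the numbers were not taken as pairs and this is not read as a weaker effect. NG2 replicates 1 to 5 matched best with GFAP replicates 4, 2, 5, 1 and 2. The number of partner genes called was 1 by voom with sample weights and 0 in every other fit. Over all genes, 24 were called by edgeR, 95 without the expression filter, 343 by DESeq2, 1441 by voom with sample weights, 12 by limma-trend with either pseudocount, 3 with GFAP 1 and GFAP 4 left out and 3 to 117 with 1 library left out.

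The fold changes that turned belong to members without a call. Car2 was 0.18 by voom with sample weights, 0.45 with GFAP 1 and GFAP 4 left out and -0.42 to 0.19 with 1 library left out. Car13 was 0.034 by voom and -0.55 to 0.012 with 1 library left out. With 1 library left out, the within-group r with the radial glia score ran from -0.65 to 0.28 for Car14 and from -0.019 to 0.43 for Car2, and that of Car14 from -0.24 to 0.72 with the intermediate progenitor and from -0.54 to 0.49 with the neuron score. For Car8 the radial glia r ran from 0.61 to 0.79, and for Car11 from -0.76 to -0.54. The smallest adjusted p of these fits (exact permutation) was 0.05 for each, at the threshold and not under it. The intermediate progenitor r of Car14, 0.0030, was -0.011 with DESeq2 size factors and -0.0025 with a prior count of 0.5. Low counts limit Car4 and Car10, for which 3 reads correspond to 0.169 to 0.228 CPM.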
